A study of Mus musculus with 42 samples.

Results

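The genes described here are 60 named genes of mitosis and the spindle, chosen by symbol and followed through every group of a mouse gastrointestinal array study. Of the 60, 58 had a probe set that carries their symbol alone and were measured, among 22180 genes measured in all. Ccnb1, which encodes cyclin B1, had no such probe set, and Ncapg, a condensin subunit, lay only on a probe set shared with another symbol, so both are without values. By role the 58 comprise 11 kinases, cyclins and regulators of mitotic entry, 4 subunits of the chromosomal passenger complex, 5 spindle checkpoint genes and 6 genes of anaphase onset and protein degradation. The others are 9 centromere and kinetochore genes, 9 kinesin motors, 4 spindle assembly factors, 4 cytokinesis genes and 6 genes of chromosome structure.

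A cell enters mitosis when Cdk1 bound to a cyclin is switched on, with help from Plk1 and the Aurora kinases. Condensins and topoisomerase then compact and untangle the chromosomes, kinesins and assembly factors build the spindle, and kinetochores attach the chromosomes to it. The spindle checkpoint holds the anaphase-promoting complex back until all are attached, after which securin and cyclin B are degraded, the chromosomes part and the cell divides. Most of these transcripts are made mainly in late S, G2 and M phase, so in a tissue their level follows the share of dividing cells. In the intestine Lgr5 marks stem cells at the crypt base, which are known to divide often, and in the pylorus it marks cells at the gland base, below the dividing cells of the isthmus.

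The study sought genes enriched in stem cells of the pylorus, the outlet region of the stomach. It measured 42 samples in 15 groups from 3 kinds of adult mice, on Affymetrix gene arrays, as log2 intensities. The mice were healthy, untreated, not selected for sex and at least 7 to 8 weeks old. In the Lgr5-EGFP-IRES-CreERT2 line (called IRES), a knock-in that puts green fluorescent protein and an inducible recombinase under the Lgr5 gene, 25 arrays covered 3 organs. From pylorus came 4 arrays of cells with strong green signal (Lgr5Hi), 4 with weak signal (Lgr5Lo) and 2 of tissue that was not sorted. The small intestine gave 2 Lgr5Hi, 2 Lgr5Lo, 2 crypt and 1 unsorted array, and the colon 3 Lgr5Hi, 3 Lgr5Lo and 2 unsorted arrays. In the Lgr5-EGFP-DTR line (called DTR), a knock-in of green fluorescent protein with the diphtheria toxin receptor at Lgr5, the pylorus gave 3 arrays each of Lgr5Hi, Lgr5Lo and non-fluorescent (Lgr5Neg) cells. Pyloric cells of wildtype mice (WT), stained for Aqp5, a water channel of the gland base, gave 4 Aqp5Pos and 4 Aqp5Neg arrays.

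The reporter gates rest on Lgr5 transcription, and a dim or dark cell in these lines may come from a gland in which the reporter is silent, which is known for the IRES line. Titles were followed where labels conflict: for the 9 DTR arrays another field gives the IRES line, and for the crypt arrays another field gives whole tissue. Epithelial markers (Epcam, Cdh1, Krt8 and Krt18) averaged 9.74 to 10.88 on every array, and the gastric gland markers 10.30 to 12.30 on the sorted pylorus arrays. Markers of immune cells (6 measured of 8), fibroblasts and smooth muscle (6) and endothelium (3) averaged between 3.01 and 4.67 on the sorted pylorus arrays, near the array medians of 3.82 to 4.25 over all probe sets. The unsorted colon array numbered 1 had a gastric profile, with the surface mucin Muc5ac at 12.50 against 4.05 on the other array and the colon enzyme Car1 at 2.50 against 11.61. The labels call the arrays biological replicates, and their number limits the precision of every value. No detection calls accompany the values, so a level near the array medians may lie close to background, and a difference from such a level may understate the change.

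Many genes of late cell division share letters near the transcription start. The cell cycle homology region, with the core TTTGAA, is bound by complexes that hold these genes silent in resting cells and, with FoxM1 and B-Myb, switch them on before mitosis. The CCAAT box, bound by NF-Y, often lies beside it. RefSeq promoter windows of the GRCm38.p6 build, from 250 bases before to 50 after the start, were matched by symbol for 50 of the 60 genes, in 55 windows. Aurkb, Ccna2, Kif20a, Tpx2, Smc4, Spc24, Dlgap5, Incenp, Cdc25c and Foxm1 were not in that table. The 6 stretches below run from 120 bases before to 30 after the start, 5′ to 3′ on the gene's strand, with TTTGAA or its reverse complement TTCAAA in capitals. Cdk1 is the entry kinase, Cdc20 the activator of the anaphase-promoting complex, Kif11 the motor that pushes spindle poles apart and Top2a the topoisomerase that untangles sister chromatids. Bub3, a checkpoint protein, and Pttg1, the securin that restrains separase, are shown because they are the 2 members not called in the first comparison that follows.
Cdk1: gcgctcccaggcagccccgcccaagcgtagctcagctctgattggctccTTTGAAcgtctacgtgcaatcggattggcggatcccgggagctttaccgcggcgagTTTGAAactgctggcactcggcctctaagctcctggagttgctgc
Cdc20: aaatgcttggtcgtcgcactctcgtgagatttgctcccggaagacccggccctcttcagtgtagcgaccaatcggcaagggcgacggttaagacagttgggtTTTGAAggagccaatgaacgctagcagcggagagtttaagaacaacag
Kif11: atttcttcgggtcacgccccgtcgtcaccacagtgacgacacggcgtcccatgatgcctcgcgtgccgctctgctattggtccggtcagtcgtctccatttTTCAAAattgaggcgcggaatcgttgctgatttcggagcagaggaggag
Top2a: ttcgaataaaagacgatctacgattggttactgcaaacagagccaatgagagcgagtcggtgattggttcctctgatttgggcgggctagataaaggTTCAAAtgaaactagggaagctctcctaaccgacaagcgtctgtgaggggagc
Bub3: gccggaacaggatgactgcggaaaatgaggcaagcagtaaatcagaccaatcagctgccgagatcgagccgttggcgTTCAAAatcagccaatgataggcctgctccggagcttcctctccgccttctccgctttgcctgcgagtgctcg
Pttg1: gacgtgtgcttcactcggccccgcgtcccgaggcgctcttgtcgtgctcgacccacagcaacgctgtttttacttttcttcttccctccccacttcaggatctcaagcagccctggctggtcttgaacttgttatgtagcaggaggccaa
They lie at chr10:69352883-69353032 (minus strand, Cdk1), chr4:118437314-118437463 (minus, Cdc20), chr19:37376262-37376411 (plus, Kif11), chr11:99024160-99024309 (minus, Top2a), chr7:131560250-131560399 (plus, Bub3) and chr11:43425952-43426101 (minus, Pttg1).

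TTTGAA on either strand was present in 38 of the 55 windows (69.1%), against 15.4% of 20611 windows of 16990 measured genes. Within 100 bases before to 50 after the start the shares were 63.6% and 6.38%. CCAAT on either strand stood in 78.2% of the members' windows and 37.7% of all windows, and the letters of both motifs in 60% and 6.15%. In the printed stretches the motif begins at -71 and -15 in Cdk1, -18 in Cdc20, -19 in Kif11, -23 in Top2a and -43 in Bub3, where -1 is the base just before the start. The Pttg1 stretch holds neither TTTGAA nor CCAAT. It surrounds a start that lies inside the gene's span of chr11:43420244-43427463 (minus strand). The bases before the outer end of that span were not examined. The members' matches gathered around the start, with 23.6% of their windows holding one in the first 25 bases after it, against 1.14% of all windows. For 15 genes no window held TTTGAA, among them Pttg1, Birc5, Bub1, Cks2, Cenpk and Nusap1. The DTR difference between Lgr5Hi and Lgr5Neg cells, described below, had a median of -1.50 over the 34 measured genes with TTTGAA, of which 33 fell, and of -1.58 over the 14 without it, of which 13 fell. A match of letters is a description of the window and does not show that a factor binds there.

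**Figure D1:**
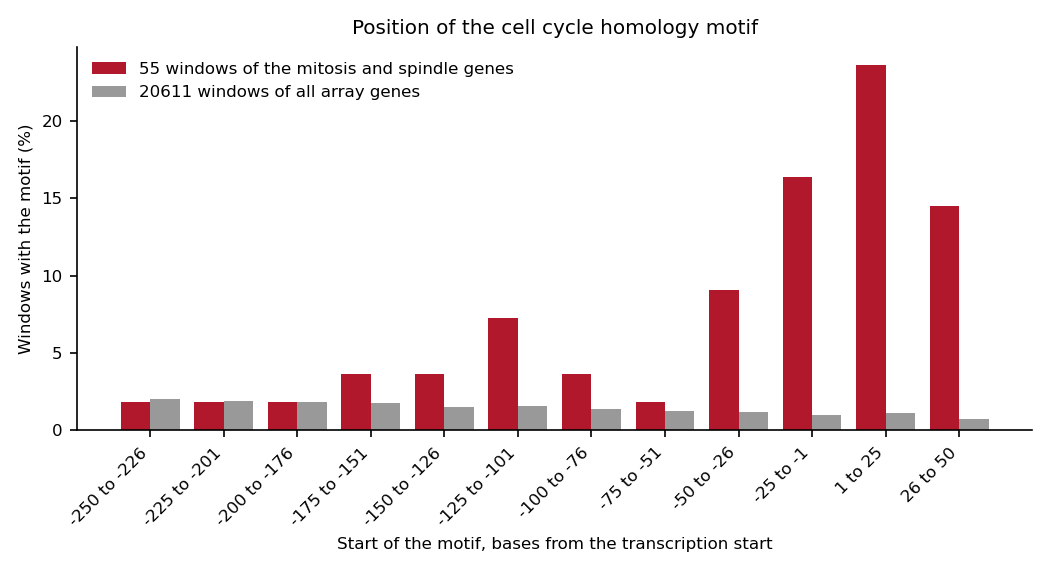
Share of promoter windows (percent, vertical axis) that hold TTTGAA on either strand, by distance of the match from the transcription start in bins of 25 bases, for the 55 windows of the mitosis and spindle genes and for all 20611 windows. The members' share is highest in the first 25 bases after the start (23.6%) and in the 25 before it (16.4%), where all windows stand at 1.14% and 0.999%.

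Averaged over the 58 genes, which weights each probe set alike and serves as a description only, the level ran from 5.81 to 7.58 across the 15 groups. The highest mean was that of Lgr5Hi cells of the small intestine (7.58 ± 0.04, SD, n = 2), followed by DTR Lgr5Neg cells (7.41 ± 0.21, n = 3), Lgr5Lo cells of the small intestine (7.28 ± 0.09, n = 2), DTR Lgr5Lo cells (7.12 ± 0.18, n = 3) and Aqp5Neg cells (7.10 ± 0.14, n = 4). Lgr5Hi cells of the colon stood at 7.05 ± 0.31 (n = 3) and Lgr5Lo cells at 6.48 ± 0.13 (n = 3). Among pyloric cells the Lgr5-rich gates lay lowest, at 6.37 ± 0.30 in Aqp5Pos cells (n = 4), 5.99 ± 0.42 in DTR Lgr5Hi cells (n = 3) and 5.95 ± 0.19 in IRES Lgr5Hi cells (n = 4), with IRES Lgr5Lo cells at 6.86 ± 0.44 (n = 4). Neighbours in this order mostly overlapped within their SD. The crypt arrays (5.81 ± 0.38, n = 2) lay below the unsorted small intestine array (7.02), and on them Lgr5 stood at 4.81 and 5.04 against 7.10, colon markers at 7.04 and 7.29 against 6.17 and immune markers at 4.90 and 5.08 against 4.33. The part of these values in the low level of the crypt arrays was not tested. In bulk samples such as these, fewer dividing cells and less RNA of these genes per cell cannot be told apart.

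**Figure D2:**
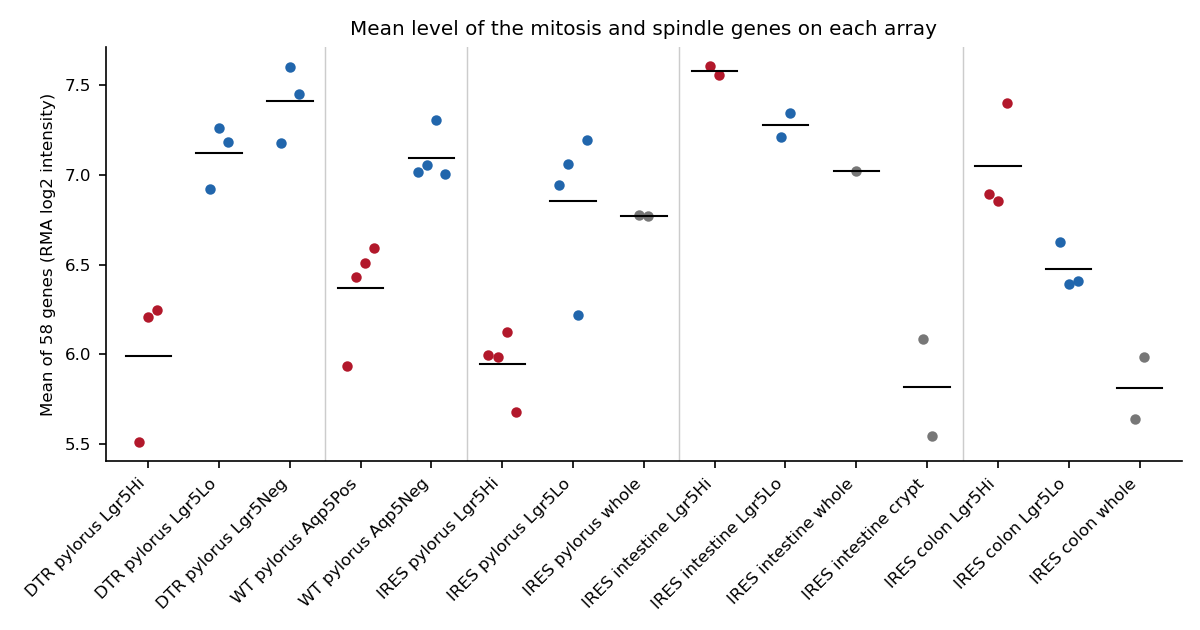
Mean log2 intensity of the 58 measured genes on each of the 42 arrays (vertical axis), by group, with Lgr5Hi and Aqp5Pos arrays in red, Lgr5Lo, Lgr5Neg and Aqp5Neg arrays in blue and unsorted and crypt arrays in grey, and a line at each group mean. The red points lie below the blue ones in each pylorus sort, at group means of 5.95 to 6.37 against 6.86 to 7.41, and above them in small intestine and colon.

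The members largely moved together over the 42 arrays. For 50 of the 58 the correlation with the mean of the other members was above 0.8, up to 0.95 for Kif23, a motor of the central spindle. It was lowest for Pttg1 (-0.08), Cdc25b, a phosphatase that switches Cdk1 on (0.40), Bub3 (0.44) and Cks2, a subunit that binds Cdk1 (0.60). Arrays of 1 group share a tissue and gate, so these values describe the table only. Lgr5Hi cells of the small intestine were the highest of the 15 groups for 34 members and DTR Lgr5Neg cells for 14. The lowest group was the unsorted colon for 19 members, the crypts for 16 and IRES pyloric Lgr5Hi cells for 13. Without the unsorted colon array that had a gastric profile these counts were 13, 18 and 15.

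**Figure D3:**
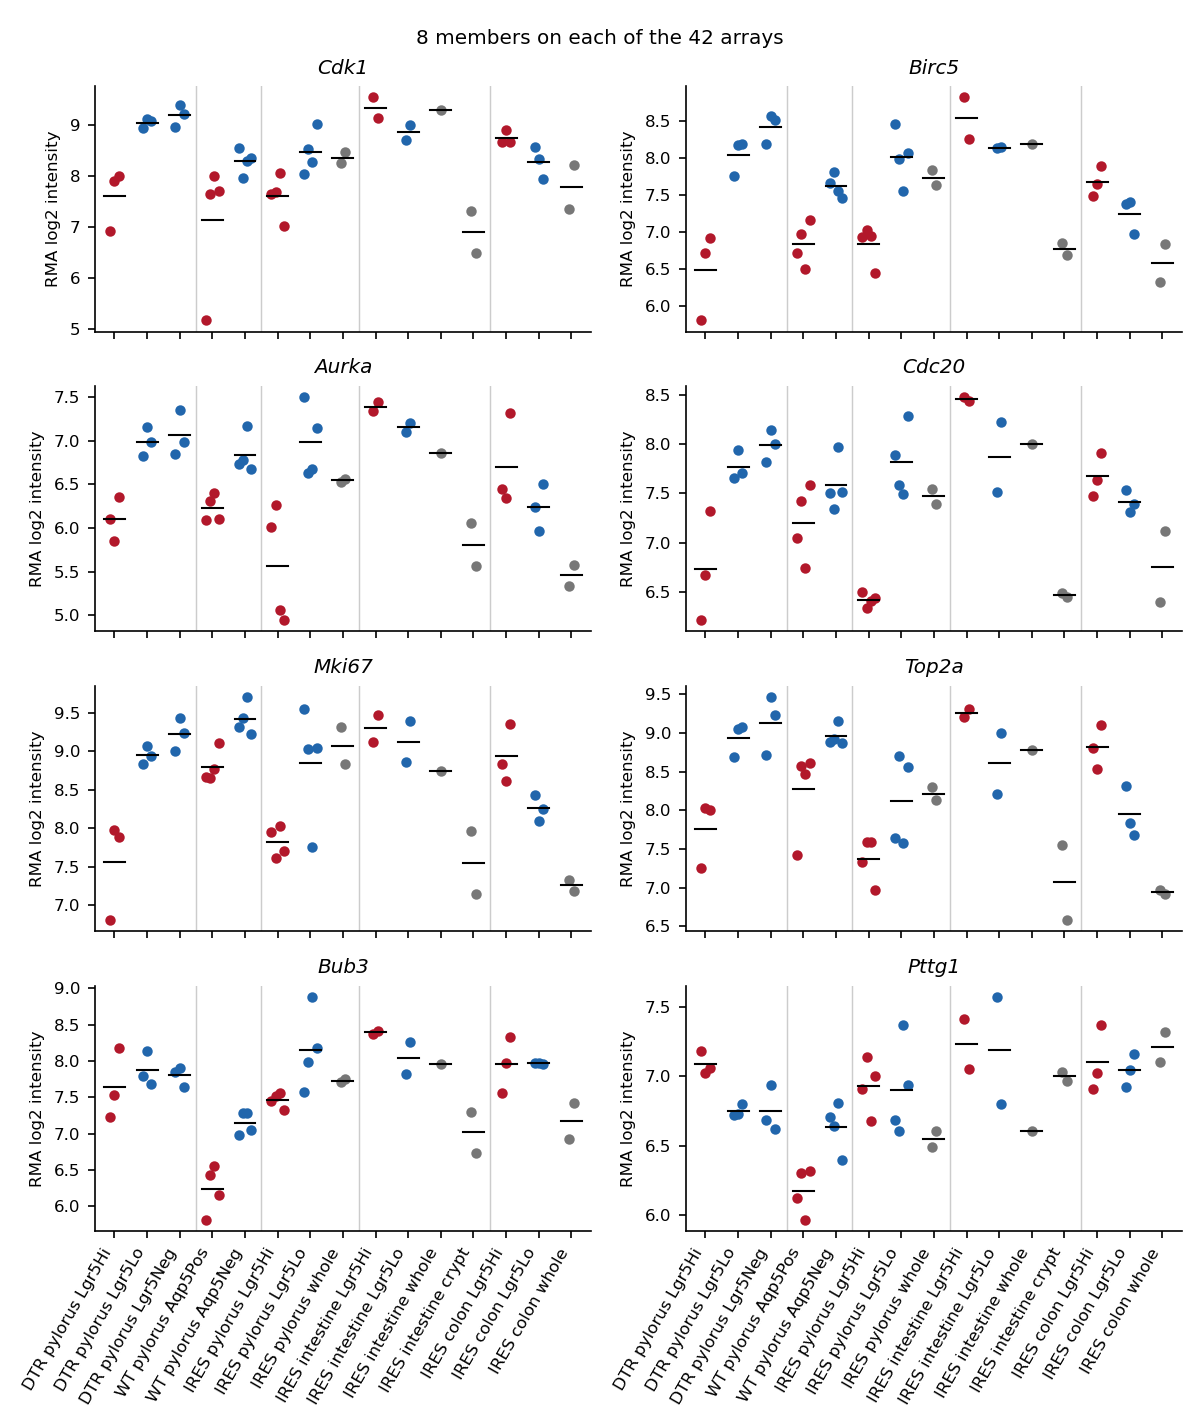
Log2 intensity (vertical axes) of Cdk1, Birc5, Aurka, Cdc20, Mki67, Top2a, Bub3 and Pttg1 on each array, by group, with Lgr5Hi and Aqp5Pos arrays in red, Lgr5Lo, Lgr5Neg and Aqp5Neg arrays in blue, unsorted and crypt arrays in grey and lines at the group means. Cdk1, Birc5, Aurka, Cdc20, Mki67 and Top2a lie lower in red than in blue in the DTR pylorus, while Pttg1 lies higher there (7.02 to 7.18 against 6.62 to 6.94).

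In the DTR pylorus the comparison asks how cells with the brightest Lgr5 reporter differ from cells without it. Nearly the whole mitotic programme was lower in Lgr5Hi cells. A call means an adjusted p under 0.05 in limma, by the Benjamini-Hochberg method across every gene measured. By that rule 56 of 58 members fell and none rose, where 18.3% of all genes were called, 9.48% as lower and 8.84% as higher. The median difference over the members was -1.46 on the log2 scale, a 2.74-fold lower level, against 0.02 over all genes. In 56 members every Lgr5Hi array lay below every Lgr5Neg array, a pattern seen in 16.1% of all genes.

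All 11 mitotic entry genes fell. Cdk1 was at 6.91, 7.89 and 8.00 in the Lgr5Hi arrays and at 8.95, 9.40 and 9.21 in the Lgr5Neg arrays, a difference of -1.58 ± 0.24 (SE, adjusted p = 0.000473). The Lgr5Hi array numbered 1 was the lowest, and the groups did not overlap. Aurka, the Aurora kinase of the spindle poles, stood at 6.10, 5.85 and 6.36 against 6.85, 7.35 and 6.99 (-0.96 ± 0.17, adjusted p = 0.00171). The largest falls of this role were in Cdc25c, another phosphatase of Cdk1 (-1.81 ± 0.30), and Cks2 (-1.80 ± 0.20). Of the passenger complex, which corrects faulty attachments and later drives cytokinesis, all 4 subunits fell. Birc5, the subunit known as survivin, was at 5.81, 6.72 and 6.92 in Lgr5Hi and at 8.20, 8.57 and 8.52 in Lgr5Neg cells, 3.85-fold lower (-1.95 ± 0.25, adjusted p = 0.000134), and its partner Cdca8, or borealin, fell by 1.48 ± 0.17. Again Lgr5Hi array 1 was the lowest and no array crossed over.

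Of the checkpoint genes 4 of 5 fell, with Ttk, the kinase that starts the checkpoint signal, at 4.38, 5.58 and 5.13 against 6.86, 7.30 and 7.29 (-2.12 ± 0.25, adjusted p = 6.53e-05). Bub1, a checkpoint kinase at the kinetochore, fell by 1.99 ± 0.32. Bub3, which docks Bub1 there, was at 7.23, 7.54 and 8.18 against 7.85, 7.91 and 7.65, overlapping groups with a difference of -0.15 ± 0.21 (adjusted p = 0.721). Of the genes of anaphase onset 5 of 6 fell. Cdc20 stood at 6.21, 6.67 and 7.32 in Lgr5Hi and at 7.82, 8.15 and 8.01 in Lgr5Neg cells (-1.26 ± 0.23, adjusted p = 0.00163), parted without overlap. Sgo1, the guardian of centromere cohesion, fell by 1.66 ± 0.23 and Cdca3, a trigger of mitotic entry that is itself degraded, by 1.28 ± 0.20. Pttg1 went the other way, at 7.18, 7.02 and 7.06 against 6.69, 6.94 and 6.62, with no overlap, but its difference of 0.34 ± 0.13 was not called (adjusted p = 0.102). With dim genes left out of the fit it was (adjusted p = 0.0469), and under the other settings its adjusted p ran from 0.0691 to 0.435.

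All 9 kinetochore genes, all 9 kinesins, all 4 assembly factors, all 4 cytokinesis genes and all 6 measured genes of chromosome structure fell. Cenpk, a subunit of the inner kinetochore, was the largest fall among the members, at 3.54, 4.84 and 4.26 against 6.28, 6.81 and 6.41, a 4.88-fold lower level (-2.29 ± 0.26, adjusted p = 5.65e-05). Its Lgr5Hi values lay near the array medians. Cenpe, the kinetochore motor, fell by 1.89 ± 0.26, and Kif20b and Kif23, motors of the dividing cell's midzone, by 1.97 ± 0.23 and 1.96 ± 0.28. Hmmr, a spindle pole factor, fell by 1.97 ± 0.22 and Tpx2, which activates Aurka on the spindle, by 1.38 ± 0.19. Anln, a scaffold of the contractile ring, fell by 1.67 ± 0.25 and Ect2, the exchange factor that places that ring, by 1.53 ± 0.28. Smc2, the core ATPase of condensin, fell by 1.74 ± 0.22. Mki67, the usual marker of proliferating cells, was at 6.80, 7.98 and 7.88 against 9.01, 9.44 and 9.24 (-1.67 ± 0.25, adjusted p = 0.000494), and Top2a at 7.25, 8.02 and 8.00 against 8.71, 9.47 and 9.23 (-1.38 ± 0.23, adjusted p = 0.00106). Neither gene overlapped between the gates.

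**Figure D4:**
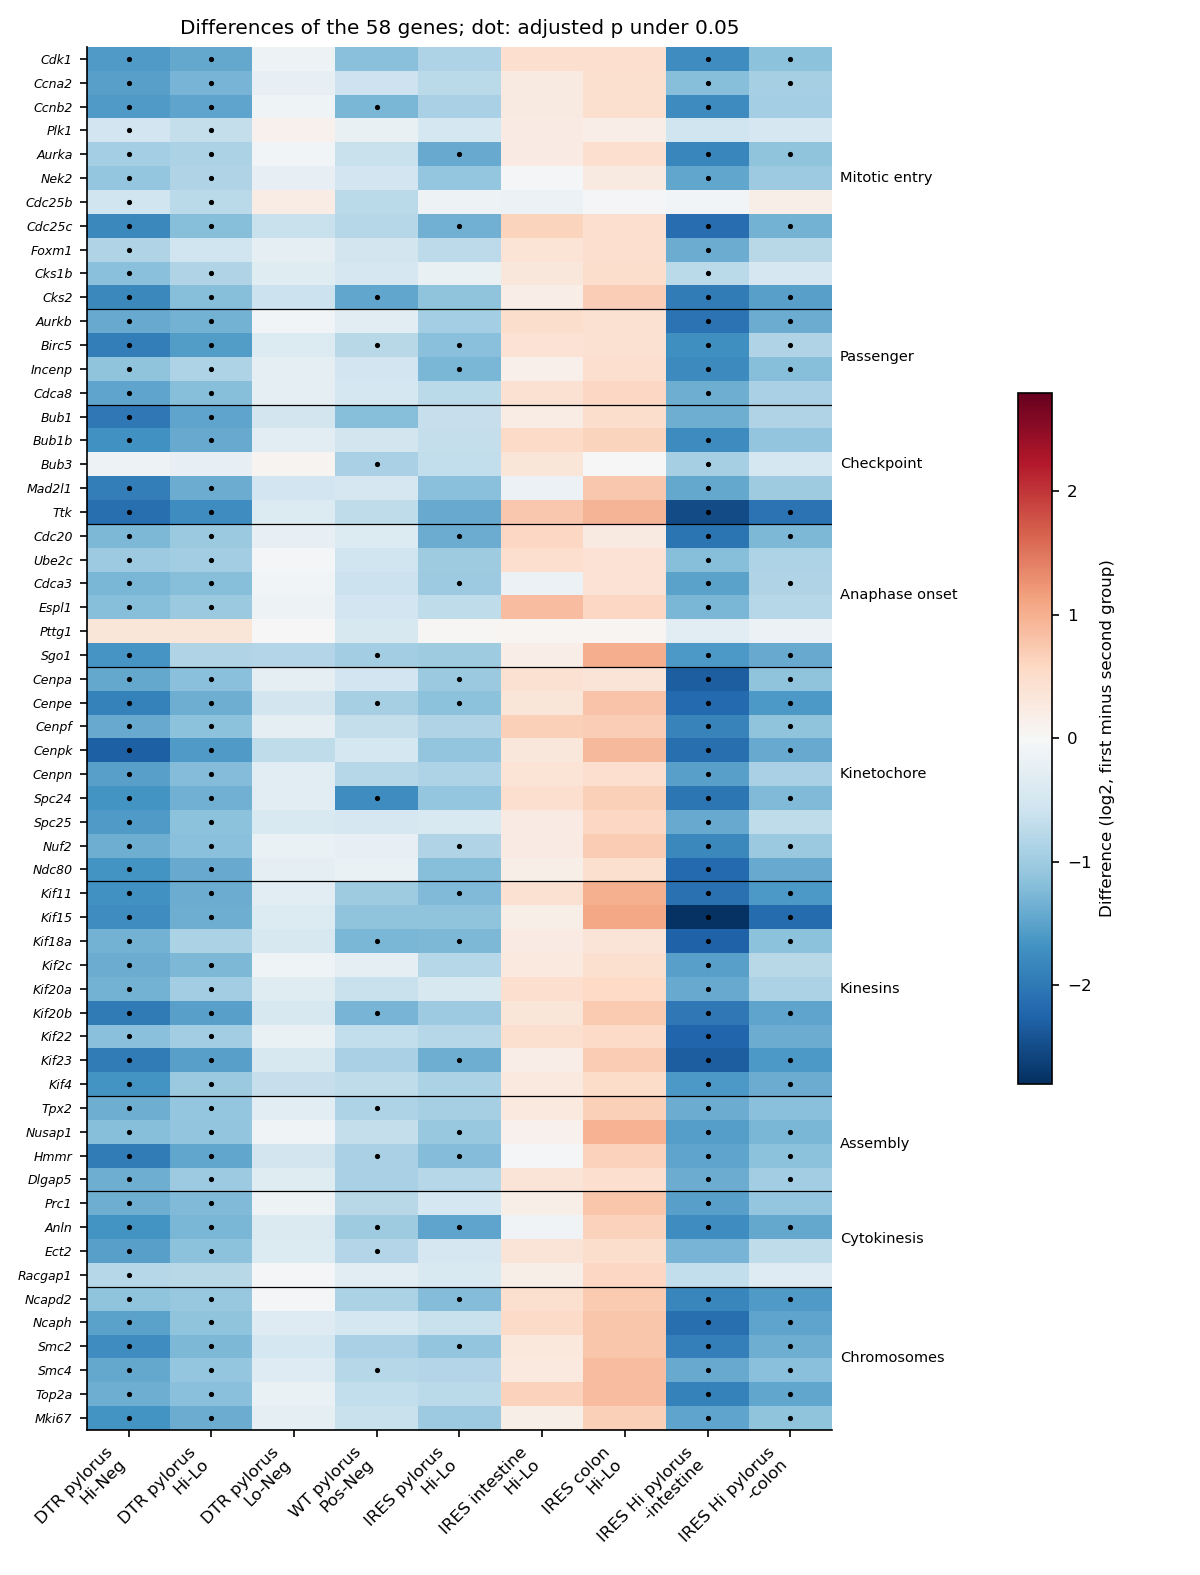
Log2 differences of the 58 measured genes (rows, ordered by role) in 9 comparisons (columns), coloured from lower (blue) to higher (red) in the first group named, with a dot where limma's adjusted p was under 0.05. Falls fill the DTR columns of Lgr5Hi cells (56 and 52 dots) and both columns that set pyloric Lgr5Hi cells against other organs (52 and 34), while the small intestine and colon columns of Lgr5Hi against Lgr5Lo carry no dot.

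Against Lgr5Lo cells, with the same Lgr5Hi arrays, 52 of 58 members fell and none rose, where 4.97% of all genes were called, 2.94% as lower and 2.02% as higher. The median difference was -1.18, and 56 members had all Lgr5Hi arrays below all Lgr5Lo arrays (11.3% of all genes). Cdk1 was at 8.93, 9.11 and 9.07 in Lgr5Lo cells (-1.44 ± 0.24, adjusted p = 0.00499), Birc5 at 7.76, 8.18 and 8.19 (-1.56 ± 0.25, adjusted p = 0.00387) and Cdc20 at 7.65, 7.94 and 7.70 (-1.03 ± 0.23, adjusted p = 0.021). All of these lay above the Lgr5Hi values given before. Aurka fell by 0.89 ± 0.17, Mki67 by 1.40 ± 0.25 and Top2a by 1.18 ± 0.23.

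Further large falls were in Ccnb2, cyclin B2 (-1.47 ± 0.36), Aurkb, the kinase of the passenger complex (-1.33 ± 0.21), Ttk (-1.74 ± 0.25), Cenpk (-1.58 ± 0.26) and Ndc80, the main microtubule coupler of the kinetochore (-1.42 ± 0.23). Kif23 and Kif20b each fell by 1.52. Espl1, the separase that cuts cohesin, fell by 1.04 ± 0.21, Nusap1, which bundles spindle microtubules, by 1.10 ± 0.22, and Prc1, which bundles the central spindle, by 1.24 ± 0.31. Not called were Foxm1, the transcription factor of late cell cycle genes (-0.56, adjusted p = 0.0514), Sgo1 (-0.84, adjusted p = 0.0557), Racgap1, Kif23's partner in the central spindle (-0.77, adjusted p = 0.0597), Kif18a, which damps chromosome movement (-0.88, adjusted p = 0.0614), Pttg1 (0.34, adjusted p = 0.197) and Bub3 (-0.22, adjusted p = 0.673). The count was 25 without Lgr5Lo array 2, 26 without Lgr5Lo array 3 and 21 in 1 fit over all 42 arrays. With the replicate number added to the fit as a block it was 56, the 52 and 4 more.

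Between the dim and dark gates of the DTR line the members differed far less. None was called, where 2.2% of all genes were called, 0.631% as lower and 1.57% as higher. At an unadjusted p under 0.05 there were 7 members (12.1%, against 13.3% of all genes), and 54 of 58 differences were negative, with a median of -0.28. The largest were Sgo1 (-0.82 ± 0.23, adjusted p = 0.0999), Cenpk (-0.70 ± 0.26, adjusted p = 0.233), Kif4, a chromosome-bound motor (-0.64 ± 0.20, adjusted p = 0.155), and Cdc25c (-0.62 ± 0.30, adjusted p = 0.402). Cdk1 (-0.15), Aurka (-0.07), Birc5 (-0.39), Cdc20 (-0.23), Mki67 (-0.28) and Top2a (-0.20) were not called, and of these 6 all but Birc5 overlapped between the gates. In 13 members all Lgr5Lo arrays lay below all Lgr5Neg arrays, where 10% of all genes did so. With the replicate number as a block 2 members were called, Sgo1 and Kif4.

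Markers of other gland cells moved between the same gates. The surface pit markers Muc5ac, Gkn1, Gkn2 and Tff1 all fell in Lgr5Hi cells against Lgr5Neg cells, with a median of -3.79, and their mean per array ran from 8.02 to 8.99 in Lgr5Hi, 11.26 to 11.76 in Lgr5Lo and 12.28 to 12.31 in Lgr5Neg cells. All 6 tuft cell markers rose in Lgr5Hi cells, with array means of 6.81 to 7.93 against 4.90 to 5.86 in Lgr5Lo and 5.28 to 6.11 in Lgr5Neg cells. Of the 6 enteroendocrine markers 2 rose and 2 fell against Lgr5Neg cells (median -0.28) and none was called against Lgr5Lo cells (median -0.13). Parietal and chief cell markers averaged 7.90 to 8.92, 8.60 to 9.38 and 5.29 to 5.99 from Lgr5Hi to Lgr5Neg cells. These averages hide a split. Against Lgr5Lo cells 2 of the 4 were called higher in Lgr5Hi cells and 2 lower, with differences from -3.56 to 2.32. Against Lgr5Neg cells 2 rose and 0 fell. Of 5 measured small intestine markers 3 fell and 1 rose in Lgr5Hi against Lgr5Neg cells (median -1.27), and 1 fell against Lgr5Lo cells. Their array means were 4.28 to 4.50, 4.67 to 5.27 and 5.73 to 5.90 from Lgr5Hi to Lgr5Neg cells. The part of these cell types in the members' differences was not tested.

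In wildtype pylorus, where cells were sorted on Aqp5 protein without a reporter, all 58 members lay lower on average in Aqp5Pos cells. Of them 14 fell and none rose, where 2.8% of all genes were called, 2.25% as lower and 0.546% as higher. The median difference was -0.69, 46 members had an unadjusted p under 0.05 (79.3%, against 19.6% of all genes), and in 33 all Aqp5Pos arrays lay below all Aqp5Neg arrays (6.68% of all genes, with 5.84% the other way). The same sort parted Lgr5, at a mean of 8.38 in Aqp5Pos and 6.42 in Aqp5Neg cells.

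Spc24, a kinetochore subunit of the Ndc80 complex, fell most, from 7.15, 7.34, 7.44 and 7.06 in Aqp5Neg cells to 5.23, 5.06, 5.65 and 6.09 in Aqp5Pos cells, 3.34-fold (-1.74 ± 0.23, adjusted p = 0.00239). Cks2 was at 6.19, 6.23, 7.09 and 6.01 against 8.09, 7.39, 8.07 and 7.80 (-1.46 ± 0.25, adjusted p = 0.0108). Ccnb2 was at 7.71, 7.82, 7.74 and 8.45 against 9.28, 9.11, 9.42 and 8.99 (-1.27 ± 0.20, adjusted p = 0.00756). In these 3 genes no Aqp5Pos array reached the lowest Aqp5Neg array. Kif20b fell by 1.29 ± 0.23 and Kif18a by 1.28 ± 0.24, followed by Anln (-0.99), Sgo1 (-0.98), Cenpe (-0.93), Bub3 (-0.91), Hmmr (-0.90), Tpx2 (-0.87), Ect2 (-0.82), Smc4, the other core ATPase of condensin (-0.79), and Birc5 (-0.78), with adjusted p-values of 0.0126 to 0.0461. Birc5 stood at 6.73, 6.98, 6.50 and 7.16 against 7.67, 7.81, 7.55 and 7.46.

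Several of the usual proliferation markers were not called in this sort. Cdk1 was at 5.17, 7.64, 8.00 and 7.70 in Aqp5Pos and 8.55, 7.96, 8.28 and 8.35 in Aqp5Neg cells, where Aqp5Pos array 1 stood apart and array 3 overlapped (-1.16 ± 0.49, adjusted p = 0.218). Mki67 was at 8.67, 8.65, 8.77 and 9.11 against 9.31, 9.44, 9.71 and 9.23 (-0.62 ± 0.18, adjusted p = 0.0881) and Aurka at 6.09, 6.32, 6.40 and 6.11 against 6.73, 6.79, 7.17 and 6.68 (-0.61 ± 0.18, adjusted p = 0.0856), both without overlap. Top2a (-0.69, adjusted p = 0.168) and Cdc20 (-0.39, adjusted p = 0.349) were not called either, and the Cdc20 arrays overlapped. The count of 14 fell to 7 without Aqp5Pos array 1 and to 5, 4, 3 and 3 without Aqp5Neg arrays 1, 2, 3 and 4. It was 5 after quantile normalization and 9 with trend and robust settings. With the replicate number as a block it was 11, of which 9 were among the 14 and 2 were not. Pit markers fell here too (4 of 4, median -1.25), but tuft cell markers fell in 5 of 6 (median -0.98), with array means of 4.12 to 4.50 in Aqp5Pos and 5.60 to 5.95 in Aqp5Neg cells. Of the 6 enteroendocrine markers 1 fell (median -1.05). Of the 4 parietal and chief cell markers 1 rose and 2 fell, with differences from -3.30 to 1.38. The part of these markers was not tested.

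In the IRES pylorus 17 of 58 members fell in Lgr5Hi against Lgr5Lo cells and none rose, where 1.49% of all genes were called, 0.884% as lower and 0.604% as higher. The median difference was -0.95, 57 differences were negative and 45 members had an unadjusted p under 0.05 (77.6%, against 13.5% of all genes). In 21 members all 4 Lgr5Hi arrays lay below all 4 Lgr5Lo arrays, which held for 2.95% of all genes. The called members were Aurka, Cdc25c, Birc5, Incenp, Cdc20, Cdca3, Cenpa, Cenpe, Nuf2, Kif11, Kif18a, Kif23, Nusap1, Hmmr, Anln, Ncapd2 and Smc2.

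Cdc20 had the smallest adjusted p of them, at 6.50, 6.34, 6.40 and 6.44 in Lgr5Hi and 7.89, 7.59, 7.49 and 8.29 in Lgr5Lo cells, 2.63-fold lower (-1.40 ± 0.20, adjusted p = 0.00143). The 4 Lgr5Hi arrays lay close together and far from the others. Anln fell most, from 7.63, 6.95, 5.95 and 7.37 to 5.61, 5.45, 5.62 and 5.30 (-1.48 ± 0.27, adjusted p = 0.00598), and Lgr5Lo array 3 was near the Lgr5Hi range. Aurka was at 6.01, 6.26, 5.07 and 4.94 against 7.50, 6.63, 6.68 and 7.14 (-1.42 ± 0.28, adjusted p = 0.0116). Birc5 was at 6.94, 7.03, 6.94 and 6.45 against 8.46, 7.99, 7.56 and 8.07 (-1.18 ± 0.21, adjusted p = 0.00482). Its scaffold partner Incenp fell by 1.27 ± 0.23, Kif23 by 1.36 ± 0.30, Kif11 by 1.24, Ncapd2, a regulatory condensin subunit, by 1.22 ± 0.21, and Cenpa, the histone that marks centromeres, by 1.05 ± 0.22.

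Ttk had a difference as large as Aurka's (-1.42 ± 0.43) but was not called (adjusted p = 0.104). Lgr5Lo array 3 stood at 4.29 while the others were at 7.16, 6.86 and 6.85, and without that array the difference was -2.09 (adjusted p = 0.000466). Mki67 was at 7.95, 7.61, 8.03 and 7.70 against 9.56, 9.03, 7.76 and 9.05, overlapping through that same array (-1.03 ± 0.29, adjusted p = 0.0758). Cdk1 (-0.86 ± 0.26, adjusted p = 0.098) and Top2a (-0.75 ± 0.27, adjusted p = 0.2) were not called, with 1 or more arrays crossing over. Lgr5Lo array 3 had a mean over the members of 6.22, where the other Lgr5Lo arrays ran up to 7.20. Without it 34 members were called, without Lgr5Hi array 4 there were 9 and without Lgr5Lo array 4 there were 11. With the replicate number as a block 23 members were called, the 17 and 6 more, among them Mad2l1, the checkpoint protein that binds Cdc20 (-1.17, adjusted p = 0.0224 against 0.0758 without the block). A fit over all 42 arrays called 29. No pit or tuft marker was called in this comparison (medians -0.51 and -0.99), and the tuft cell array means overlapped, at 5.23 to 7.93 and 6.28 to 7.62. Of 6 enteroendocrine markers Ghrl, the hormone ghrelin, fell (list median -1.04, array means 8.64 to 9.79 against 9.38 to 11.25), Krt8 of the 4 epithelial markers fell, and of the 4 gland markers Aqp5 rose. None of the 4 parietal and chief cell markers was called, with differences from -2.53 to 1.79. All 5 measured small intestine markers were lower in Lgr5Hi cells, without a call (median -1.185). Their array means ran from 5.14 to 8.06 in Lgr5Hi and 5.77 to 9.21 in Lgr5Lo cells, where the DTR pylorus arrays ran from 4.28 to 5.90. The part of these markers in the members' differences was not tested.

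The 3 pyloric sorts share no arrays, so their calls can be set side by side. Since 56 of the 58 members (96.6%) fell in DTR Lgr5Hi against Lgr5Neg cells, nearly any set of members would be among them. Of the 14 members that fell in Aqp5Pos cells, 13 (92.9%, and 23.2% of the 56) had fallen in DTR Lgr5Hi against Lgr5Neg cells, all but Bub3. All 17 of the IRES pylorus were among the 56 (30.4%). Aqp5Pos and IRES Lgr5Hi cells shared 5 members, 35.7% and 29.4% of their calls, where 29.3% and 24.1% of all members were called in the other sort. These 5, all among the 56 of the DTR line, were Anln, Birc5, Cenpe, Hmmr and Kif18a. In DTR Lgr5Hi against Lgr5Lo cells, the gates used in the IRES line, 16 of the 17 (94.1%) had fallen, all but Kif18a. There 89.7% of all members fell. The wildtype count of 14 went as low as 3 with 1 array left out, so overlaps with it rest on few arrays.

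In small intestine and colon the same gates of the IRES line gave mostly positive differences, none of them called. In the small intestine 0.185% of all genes were called (0.0812% as higher and 0.104% as lower) and no member, and 52 of 58 differences were positive with a median of 0.29. An unadjusted p under 0.05 was seen in 1.72% of the members, against 4.69% of all genes, and that member was Espl1 (0.87 ± 0.34, adjusted p = 0.782 by limma), at 6.07 and 6.40 in Lgr5Hi and 4.86 and 5.87 in Lgr5Lo cells. Cdk1 was at 9.54 and 9.13 against 8.71 and 9.004 and Cdc20 at 8.48 and 8.44 against 7.52 and 8.23, higher in both Lgr5Hi arrays yet not called. Birc5 (0.40), Aurka (0.24), Top2a (0.65) and Mki67 (0.17) were likewise not called. Enteroendocrine markers were all lower in Lgr5Hi cells without a call (6 of 6, median -1.92, array means 8.12 to 8.28 against 9.60 to 10.14), as were tuft cell markers (6 of 6, median -0.998, 5.07 to 5.14 against 5.77 to 6.36), and their part was not tested. In 34 members both Lgr5Hi arrays lay above both Lgr5Lo arrays, where 19.7% of all genes did.

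In the colon limma called no gene at all (0%), and so no member. There 56 of 58 differences were positive, with a median of 0.56, 17 members had an unadjusted p under 0.05 (29.3%, against 4.51% of all genes), and in 37 all Lgr5Hi arrays lay above all Lgr5Lo arrays, against 7.06% of all genes (8.63% the other way). Nusap1 was at 8.04, 7.74 and 8.38 in Lgr5Hi and 7.49, 6.81 and 6.91 in Lgr5Lo cells (0.98 ± 0.26, adjusted p = 0.7). Kif11 was at 7.68, 7.45 and 7.98 against 7.03, 6.56 and 6.52 (1.00 ± 0.29, adjusted p = 0.849). Both parted without overlap. Other differences were 1.07 for Kif15, a motor that backs up Kif11, 1.02 for Sgo1, 0.87 for Top2a, 0.68 for Mki67, 0.46 for Cdk1, 0.46 for Aurka, 0.43 for Birc5 and 0.26 for Cdc20, none of them called. Lgr5 itself, with a difference of 1.90, was not called (adjusted p = 0.217). Colon markers averaged 4.24 to 8.15 on the Lgr5Hi and 7.66 to 8.72 on the Lgr5Lo arrays, enteroendocrine markers 5.89 to 6.31 and 6.61 to 6.96, and tuft cell markers 5.12 to 5.54 and 5.66 to 6.44, and their part was not tested.

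**Figure D5:**
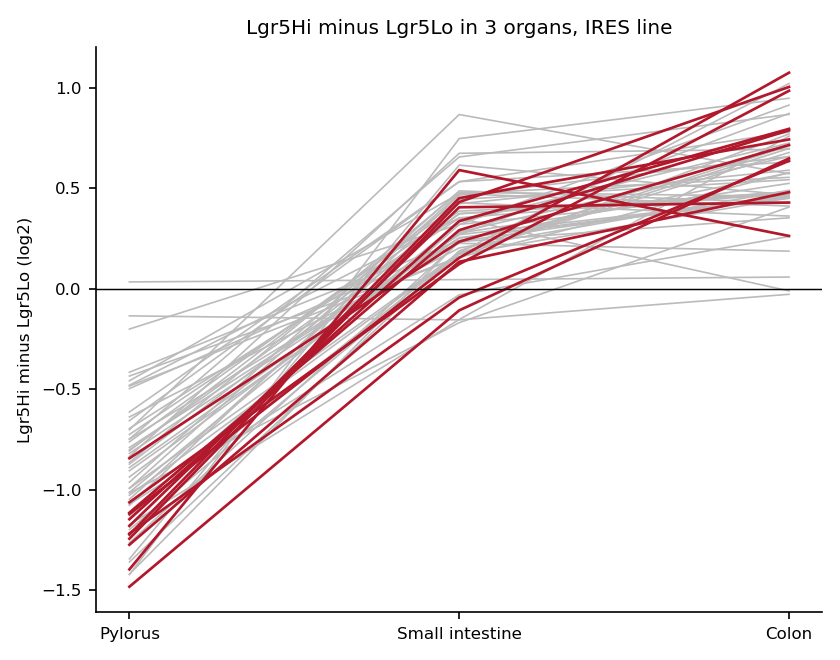
Log2 difference between Lgr5Hi and Lgr5Lo cells of the IRES line (vertical axis) for each of the 58 measured genes in pylorus, small intestine and colon, with lines joining a gene and red for the 12 genes whose pylorus difference was called as different from that in colon. Most genes lie below 0 in pylorus (median -0.95) and above 0 in small intestine (0.29) and colon (0.56).

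The difference between organs was tested itself, as the Lgr5Hi-minus-Lgr5Lo difference in pylorus less that in the other organ. Against colon it was negative for all 58 members, with a median of -1.47, and 12 were called, all lower, where 0.225% of all genes were called, 0.189% as lower and 0.0361% as higher. They were Kif11 (-2.25 ± 0.39), Kif15 (-2.19 ± 0.46), Anln (-2.13 ± 0.41), Nusap1 (-2.05 ± 0.35), Ncapd2 (-1.96 ± 0.31), Cenpe (-1.94 ± 0.35), Smc2 (-1.90 ± 0.39), Hmmr (-1.85 ± 0.33), Incenp (-1.75 ± 0.35), Cdc20 (-1.66 ± 0.31), Birc5 (-1.61 ± 0.32) and Nuf2, a partner of Ndc80 (-1.56 ± 0.29). Their adjusted p-values ran from 0.0156 to 0.043. For Kif11 the pylorus values were 5.80, 6.63, 6.41 and 5.60 in Lgr5Hi against 6.93, 7.58, 7.38 and 7.51 in Lgr5Lo cells, so each Lgr5Hi array lay below each Lgr5Lo array here and above it in colon. Aurka (-1.88, adjusted p = 0.0754), Mki67 (-1.70, adjusted p = 0.124), Top2a (-1.61, adjusted p = 0.123) and Cdk1 (-1.32, adjusted p = 0.211) were not called.

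This count leaned on single arrays. It was 0 without colon Lgr5Hi array 3 or colon Lgr5Lo array 3, 1 without colon Lgr5Lo array 2, 5 without colon Lgr5Hi array 1, 6 without pylorus Lgr5Hi array 4, 7 without pylorus Lgr5Lo array 4 and 26 without pylorus Lgr5Lo array 3. With the replicate number as a block it was 19 and held all 12, with Aurka (adjusted p = 0.028) and Mad2l1 (adjusted p = 0.0342) among those added, and in 1 fit over all 42 arrays it was 28. Against the small intestine, with the same pylorus arrays, 57 of 58 differences were negative with a median of -1.21, and 40 had an unadjusted p under 0.05 (69%, against 7.38% of all genes). Only Cdc20 was called (-1.99 ± 0.35, adjusted p = 0.0359), where 0.0316% of all genes were, 0.00902% as lower and 0.0225% as higher. That call was lost without pylorus Lgr5Hi array 1, 2 or 4, pylorus Lgr5Lo array 1, 2 or 4, small intestine Lgr5Hi array 1 or 2, or small intestine Lgr5Lo array 1, and with arrays centred on their medians. The count rose to 2 without pylorus Lgr5Hi array 3 and to 5 without pylorus Lgr5Lo array 3. No small intestine marker was called in either organ difference (medians -1.16 against small intestine and -0.79 against colon), and their part was not tested.

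Lgr5Hi cells of the 3 organs were then set against each other. Pyloric Lgr5Hi cells held less transcript of nearly every member than those of the small intestine, with 52 of 58 lower and none higher, where 12.4% of all genes were called and 7.74% as lower (4.67% as higher). The median was -1.66, and 56 members parted without overlap (16.9% of all genes). Large falls were in Kif15, at 4.80, 4.58, 3.65 and 5.10 in pylorus and 7.20 and 7.41 in small intestine (-2.77 ± 0.37, adjusted p = 1.73e-05), Ttk (-2.51 ± 0.53), Kif23 (-2.31 ± 0.37), Cenpa (-2.30 ± 0.27, adjusted p = 3.7e-06), Ndc80 (-2.18 ± 0.60), Cdc25c (-2.13 ± 0.37) and Ncaph, a condensin subunit (-2.11 ± 0.42). Cdc20 fell by 2.04 ± 0.25 (adjusted p = 5.72e-06), Top2a by 1.89 ± 0.33, Aurka by 1.82 ± 0.34, Cdk1 by 1.74 ± 0.32, Birc5 by 1.71 ± 0.25 and Mki67 by 1.48 ± 0.35.

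Not called were Plk1, a kinase of mitotic entry (-0.56), Cdc25b (-0.09), Bub1 (-1.37), Pttg1 (-0.30), Ect2 (-1.31) and Racgap1 (-0.68), with adjusted p-values of 0.104 to 0.918. The count was 34 without either of the 2 small intestine Lgr5Hi arrays, when the lone one was assumed to vary like the other groups. Lgr5 itself differed by 0.19 between these cells (adjusted p = 0.806). The pyloric Lgr5Hi arrays also carried markers of other cell types. Pit markers averaged 10.74 to 12.21 on them, 8.02 to 8.99 on DTR Lgr5Hi and 12.62 to 12.67 on unsorted pylorus arrays. Parietal and chief cell markers averaged 9.41 to 9.98. Small intestine markers averaged 5.14 to 8.06, against 10.81 to 11.53 in small intestinal Lgr5Hi cells. The part of these markers here and in the comparison with colon that follows was not tested.

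Against colon Lgr5Hi cells, with the same pylorus arrays, 34 of 58 members were lower and none higher, where 7.12% of all genes were called, 4.22% as lower and 2.9% as higher. The median was -1.13, and 44 members did not overlap between the organs (9.06% of all genes). Kif15, at 6.58, 6.38 and 7.10 in colon, differed most (-2.15 ± 0.32, adjusted p = 0.000125), and other large falls were in Ttk (-2.07 ± 0.46), Kif23 (-1.60 ± 0.33), Cenpe (-1.60 ± 0.25) and Ncapd2 (-1.59 ± 0.22). Top2a fell by 1.44 ± 0.29, Cdc20 by 1.26 ± 0.22, Cdk1 by 1.14 ± 0.28, Aurka by 1.14 ± 0.30, Mki67 by 1.12 ± 0.31 and Birc5 by 0.84 ± 0.22. The count was 18 without colon Lgr5Hi array 3, the array with the highest mean over the members in its group (7.40).

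The members outside the common pattern can be followed through the groups. Pttg1 was nearly flat in the IRES pylorus (difference 0.03, adjusted p = 0.969), the small intestine (0.04) and the colon (0.06), and not called in either DTR comparison with Lgr5Hi cells, where its arrays lay higher. In wildtype cells it was at 6.13, 6.30, 5.97 and 6.32 in Aqp5Pos and 6.71, 6.64, 6.81 and 6.40 in Aqp5Neg cells (-0.46 ± 0.17, adjusted p = 0.17). Its correlation with the mean of the other members was -0.81 over the 9 DTR arrays and 0.82 over the 8 wildtype arrays. Bub3 was not called in the DTR sorts but fell in Aqp5Pos cells, at 5.81, 6.43, 6.56 and 6.15 against 6.98, 7.29, 7.28 and 7.05, and in the IRES pylorus it was not called (-0.70 ± 0.23, adjusted p = 0.154). Cdc25b fell in DTR Lgr5Hi cells against both gates (-0.55 and -0.75, adjusted p = 0.0183 and 0.0116) and differed by -0.14 in the IRES pylorus (adjusted p = 0.903).

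Other genes of cell division from lists outside the 60 were counted in the same fits. Of 50 measured further mitosis genes, 42 fell in DTR Lgr5Hi against Lgr5Neg cells, 34 against Lgr5Lo cells, 5 in Aqp5Pos cells and 10 in IRES pyloric Lgr5Hi cells, and none rose. They included Melk, a kinase of dividing progenitors (-1.95 ± 0.23), and Ska2, of the outer kinetochore (-1.27 ± 0.14), in the first comparison, Cenpq, a kinetochore subunit (-1.45 ± 0.26), in the wildtype sort and Knl1, the platform on which checkpoint proteins gather (-1.55 ± 0.29), in the IRES pylorus. Of 33 measured DNA replication genes 32, 26, 2 and 6 fell in the same order and none rose, with medians of -1.31, -1.04, -0.45 and -0.74. The shares called were 84%, 68%, 10% and 20% of the further mitosis genes and 97%, 78.8%, 6.06% and 18.2% of the replication genes, where 18.3%, 4.97%, 2.8% and 1.49% of all genes were called. In DTR Lgr5Hi against Lgr5Neg cells these included Mcm10, needed to start the replication fork (-1.76 ± 0.17), and Rrm2, a subunit of ribonucleotide reductase (-2.03 ± 0.23), and in the IRES pylorus Rrm1, its partner subunit (-1.20 ± 0.19). In the small intestine and colon none of either list was called, and in pyloric against small intestinal Lgr5Hi cells 38 and 27 were lower, against colonic ones 25 and 13, where 12.4% and 7.12% of all genes were called.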

How the data were processed

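RNA of sorted cells, crypts and unsorted tissue, with at least 2 ng per sample and amplified to cDNA per the labels' protocols, was measured on 42 mouse gene arrays. The deposited values are log2 intensities made by the authors; the submitters' processing notes name RMA, oligo, limma 3.26.8, R 3.2.3 and Partek with no role or order. Of 41345 probe sets, 23521 carry 1 gene symbol, 1814 several and 16010 none. They gave 22180 genes, and a gene with more than 1 probe set was read from the brightest on average. Among the members this held for Cks2 alone, with 4 probe sets. It was read at a mean of 8.15 over all arrays, where the dimmest averaged 7.47. Each mouse line was fitted alone with limma 3.58.1 in R 4.3.3, 1 mean per group, Benjamini-Hochberg adjustment over all genes and calls at an adjusted p under 0.05. The fits were tested on simulated data, with 100 genes changed by 1 on the log2 scale. Of these 81 were called for DTR Lgr5Hi against Lgr5Neg, 23 in small intestine and 39 in colon. For the organ differences against small intestine and colon 4 and 18 were called, so a lack of calls there says little about a change of that size. Of 100 genes changed by 2, 57 and 75 were called in these organ differences. Within small intestine and colon 82 and 91 were. The members and lists were chosen with earlier results of these data known. Named genes are, per role, the 2 called members with the largest difference (with none called, the 2 smallest p), members called against the majority, those not called where most were, 7 always named (Cdk1, Ccnb1, Birc5, Aurka, Cdc20, Mki67 and Top2a), and of other lists the 4 smallest p. Other members named for context were chosen after their values were seen. Deviations of same-numbered arrays correlated at 0.10 to 0.30 in IRES pylorus and 0.14 to 0.24 in colon. They correlated at 0.37 in small intestine, where 2 arrays a group give a single value. In the DTR and WT sorts the correlations ran from -0.11 to 0.15 and from -0.02 to 0.17. The main fit has no replicate block. Counts with the block are given beside the results or with the other alternatives. The labels do not say whether replicates came from separate animals, so p-values measure the spread between these samples. Alternatives were other normalizations, probe set and dim gene rules, limma settings, 1 fit over all arrays, the replicate block and leaving out each array.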

Additional observations from a re-analysis of the deposited data

Results flagged for a closer look

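Of 88 groups of 4 arrays or more in which the named members or their mean were checked, 7 held an array far from the others, where chance gives about 5 percent. In the IRES pylorus Birc5 was at 6.45 on Lgr5Hi array 4, with the nearest at 6.94, and Cdca3 at 7.71 on Lgr5Lo array 4, with the nearest at 7.30. Ttk was at 4.29 on Lgr5Lo array 3, where the nearest stood at 6.85. In the wildtype sort Cdk1 was at 5.17 on Aqp5Pos array 1 (nearest 7.64) and Top2a at 7.41 on the same array (nearest 8.47). Ccnb2 was at 8.45 on Aqp5Pos array 4 (nearest 7.82), and the mean over the members was 7.31 on Aqp5Neg array 3 (nearest 7.06).

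The difference between Lgr5Hi and Lgr5Lo cells itself differed between organs for Cdc20 in pylorus against small intestine (-1.99 by limma's interaction term). Against colon the term was called for Birc5 (-1.61), Incenp (-1.75), Cdc20 (-1.66), Cenpe (-1.94), Nuf2 (-1.56), Kif11 (-2.25), Kif15 (-2.19), Nusap1 (-2.05), Hmmr (-1.85), Anln (-2.13), Ncapd2 (-1.96) and Smc2 (-1.90).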

How the results depend on the processing

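Every member called under any setting was lower, except Pttg1 in DTR Lgr5Hi against Lgr5Neg cells with dim genes left out (0.34, adjusted p = 0.0469). In 1 fit over all 42 arrays the count of members called was 21 for DTR Lgr5Hi against Lgr5Lo, 29 for IRES pylorus, and 2 and 28 for the organ differences against small intestine and colon. In the wildtype sort 9 were called with trend and robust settings and 5 after quantile normalization, and with arrays centred on their medians the organ difference against small intestine had 0 (limma; 1 without centring). With the replicate number as a block, 2 members were called between DTR Lgr5Lo and Lgr5Neg cells (Sgo1 and Kif4) and 19 in the organ difference against colon. In the DTR line the block gave 56 calls for Lgr5Hi against Lgr5Neg and 56 against Lgr5Lo. In WT it gave 11, of which 9 were also called without it. In the IRES line it gave 23 in pylorus, 0 in small intestine and colon, 51 and 33 between organs. Leaving out 1 array at a time gave 53 to 56 calls for DTR Lgr5Hi against Lgr5Neg, 25 to 53 against Lgr5Lo, 3 to 16 in WT, 9 to 34 in IRES pylorus, 34 to 52 and 18 to 38 for pyloric Lgr5Hi cells against small intestine and colon, and 0 to 5 and 0 to 26 for the 2 organ differences. Without the unsorted colon array 1, IRES pylorus had 24 calls and the organ difference against colon 15.

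Of 3655 values of named genes under alternatives, 3344 kept direction and call, 256 lost and 49 gained a call, and 6 turned sign, none of them called. These were Bub3 in DTR Lgr5Hi against Lgr5Neg without Lgr5Hi array 1 (0.057, range -0.42 to 0.057 over arrays left out), Aurka in Lgr5Lo against Lgr5Neg without Lgr5Lo array 1 (0.0064) or Lgr5Neg array 2 (range -0.18 to 0.072), Mki67 in small intestine without Lgr5Hi array 2 (-0.0017) or Lgr5Lo array 1 (range -0.097 to 0.44), and Cdc25b in pyloric against small intestinal Lgr5Hi cells after quantile normalization (0.089). The cause was not tested. Settings that keep the group means, such as 1 fit over all arrays, the trend and robust settings and the dim gene rule, cannot turn a sign. Background correction and scan batches were not run, since scanner files were not used here. Arrays of 2 to 4 a group limit precision, as do levels near background such as Cenpk in DTR Lgr5Hi cells.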

Other observations

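No test of the report compares the unsorted and crypt arrays, which entered the IRES fit only through its estimate of the spread. Cdk1, the kinase of mitotic entry, was at 8.24 and 8.47 in unsorted pylorus, 9.29 in unsorted small intestine, 7.34 and 8.21 in unsorted colon, and 7.31 and 6.48 in the crypt arrays. The crypt values lay below both small intestinal gates of the same gene. Mki67, the proliferation marker, was at 7.96 and 7.14 on the crypt arrays, where the gates of the small intestine ran from 8.86 to 9.48. Unsorted colon array 1, with its gastric profile, had correlations of 0.956 to 0.962 with unsorted pylorus and 0.908 with the other unsorted colon array over all genes, and a mean over the mitosis and spindle genes of 5.64 against 5.99.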
